A study of Mus musculus with 3 samples.

Results

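Kupffer cells, the resident macrophages of the liver sinusoids, were followed through 10 marker genes, C1qa, C1qb, C1qc, Clec4f, Cd5l, Marco, Vsig4, Csf1r, Cd68 and Timd4. They were taken by symbol from the 23356 genes of the deposited tables, and each symbol matched 1 row. The liver RNA came from mice of 16 weeks on a mixed C57BL6J/FVB background. The 3 libraries, 1 per group, were Ercc1 DR (genotype Ercc1 delta/-, under diet restriction), Ercc1 AL (genotype Ercc1 delta/-, fed ad libitum) and wt AL (wildtype, fed ad libitum). Ercc1 delta/- mice carry a null and a truncated allele of the DNA repair gene Ercc1 in all cells. Whether animals were pooled for a library is not stated in the labels. No restricted wild-type library was analysed here, so diet could be followed only within the mutant. With 1 library per group there was no spread between animals, and no test was possible for any difference below.

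Kupffer cells clear bacteria, dying cells and worn-out erythrocytes from portal blood. They settle in the liver before birth, depend on signalling through the CSF1 receptor, and are distinguished from monocyte-derived macrophages by CLEC4F, TIM-4 and MARCO in mice. They are also a main source of C1q, the recognition subunit of the classical complement pathway. C1q is built from A, B and C chains, which are encoded by C1qa, C1qb and C1qc.

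Values were FPKM as deposited, a measure scaled for transcript length and library size, each with a deposited lower and upper bound. These bounds describe error within a library only, and how animals differ is outside them. The 30 marker values all had the status OK. The bounds lay between 6.21% and 32.7% of their midpoint to either side, and 5 of the 30 values lay above their own upper bound. Genes with at least 1 FPKM numbered 10819 in Ercc1 DR, 11799 in Ercc1 AL and 10368 in wt AL. The targeted gene Ercc1 stood at 0.475, 0.573 and 0.461 FPKM in that order (chromosome 7, 19345071 to 19356524) with overlapping bounds, and a value summed over the gene does not check the genotype.

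Marker transcripts were a small part of liver RNA. All 10 were detected in every library, and none exceeded 6.74 FPKM. Summed over the 10 genes, the level was 21.3 FPKM in Ercc1 DR, 34.2 FPKM in Ercc1 AL and 25.8 FPKM in wt AL. The Ercc1 AL sum was thus the highest of the 3 and the Ercc1 DR sum the lowest, as deposited. FPKM of genes in general also differed between libraries. In Ercc1 AL against wt AL the sums had a ratio of 1.32, and the median gene had 1.41. In Ercc1 DR against Ercc1 AL the ratios were 0.625 and 1.26, and in Ercc1 DR against wt AL 0.827 and 1.72. The median gene is that of genes with at least 1 FPKM in each library. In bulk liver, the number of Kupffer cells, the RNA per Kupffer cell and the amount of RNA from other cells cannot be told apart.

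**Figure D1:**
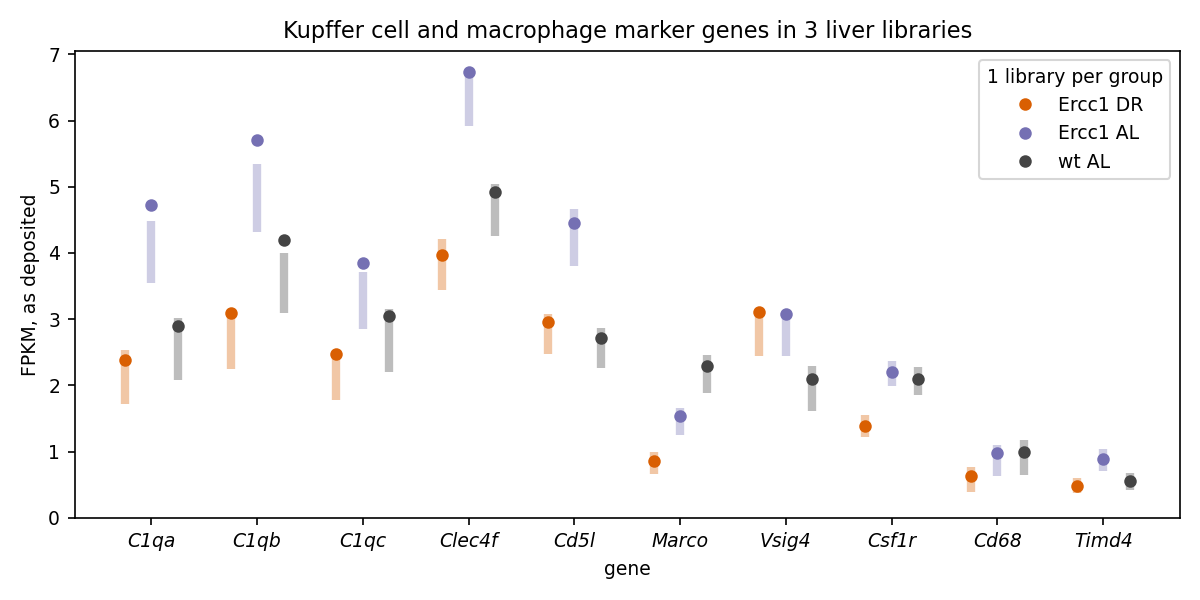
FPKM as deposited (vertical axis) of the 10 marker genes (horizontal axis) in Ercc1 DR, Ercc1 AL and wt AL, 1 library each. Points are FPKM and bars the deposited bounds. Clec4f leads in every library, and the Ercc1 AL points of the C1q genes, Clec4f, Cd5l, Csf1r and Timd4 lie above those of the other libraries.

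The 3 C1q genes lie side by side on chromosome 4, in the order C1qb, C1qc, C1qa, from 136880145 to 136898844 of mm10 on the minus strand, a span of 18.7 kb. C1qb stood at 3.09 FPKM in Ercc1 DR, 5.70 FPKM in Ercc1 AL and 4.19 FPKM in wt AL. C1qa stood at 2.38, 4.72 and 2.90 FPKM, and C1qc at 2.48, 3.84 and 3.04 FPKM, in the same order of libraries. Each chain was highest in Ercc1 AL and lowest in Ercc1 DR. The bounds of Ercc1 DR lay below those of Ercc1 AL for each chain, whereas those of Ercc1 DR and wt AL overlapped for each.

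The proportions of the chains differed little between libraries. C1qb supplied 38.9% of the summed C1q FPKM in Ercc1 DR, 40.0% in Ercc1 AL and 41.4% in wt AL. C1qa supplied 29.9%, 33.1% and 28.6%, and C1qc 31.2%, 26.9% and 30.0%, in the same order.

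Clec4f, a galactose-binding lectin found on Kupffer cells in mice (chromosome 6, 83644542 to 83656116, minus strand), was the highest marker in each library. It stood at 3.98 FPKM in Ercc1 DR (bounds 3.45 to 4.21), 6.74 FPKM in Ercc1 AL (5.92 to 6.70) and 4.91 FPKM in wt AL (4.26 to 5.04). The 3 pairs of bounds did not overlap. Timd4, the phosphatidylserine receptor TIM-4 that tethers dying cells (chromosome 11, 46810799 to 46844333, plus strand), was the lowest marker. It stood at 0.487 FPKM in Ercc1 DR (bounds 0.368 to 0.605), 0.893 FPKM in Ercc1 AL (0.711 to 1.04) and 0.555 FPKM in wt AL (0.422 to 0.683). Ercc1 AL was above both other libraries, which overlapped.

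Cd5l encodes a secreted scavenger protein also known as AIM (chromosome 3, 87357881 to 87371074, plus strand). It stood at 2.95 FPKM in Ercc1 DR (bounds 2.48 to 3.08), 4.46 FPKM in Ercc1 AL (3.80 to 4.66) and 2.72 FPKM in wt AL (2.27 to 2.86). Here too Ercc1 AL was above both other libraries, which overlapped. Of the 12294 genes with at least 1 FPKM in Ercc1 AL or wt AL, 61.7% had bounds in Ercc1 AL above those in wt AL. Of the 12295 genes with at least 1 FPKM in Ercc1 DR or Ercc1 AL, 26.9% had bounds in Ercc1 DR below those in Ercc1 AL. The same shares stand beside the Ercc1 AL bounds given above for the C1q genes, Clec4f and Timd4.

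Marco, a class A scavenger receptor for bacteria (chromosome 1, 120474538 to 120505084, minus strand), had another order. It stood at 0.852 FPKM in Ercc1 DR (bounds 0.662 to 0.994), 1.54 FPKM in Ercc1 AL (1.25 to 1.66) and 2.30 FPKM in wt AL (1.89 to 2.46). Marco was the only marker whose bounds in Ercc1 AL lay below those in wt AL. Of the 12294 genes with at least 1 FPKM in either library, 11.0% did so. Vsig4, the complement receptor CRIg that binds C3 fragments (chromosome X, 96247203 to 96293438, minus strand), stood at 3.10 FPKM in Ercc1 DR (bounds 2.44 to 3.13), 3.08 FPKM in Ercc1 AL (2.44 to 3.11) and 2.09 FPKM in wt AL (1.61 to 2.30). Vsig4 was the only marker whose bounds in Ercc1 DR lay above those in wt AL. Of the 12054 genes with at least 1 FPKM in either of these libraries, 62.8% did so. The Ercc1 DR and Ercc1 AL values of Vsig4 were nearly alike.

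Csf1r, the receptor for CSF1 and IL-34 on which macrophage survival depends (chromosome 18, 61105572 to 61131139, plus strand), stood at 1.38 FPKM in Ercc1 DR (bounds 1.21 to 1.55), 2.21 FPKM in Ercc1 AL (1.98 to 2.37) and 2.09 FPKM in wt AL (1.86 to 2.28). Only Ercc1 DR stood apart, below the others. Csf1r is also made by monocytes. In GENCODE M21 its exons overlap those of the antisense gene Hmgxb3. Hmgxb3 was at 2.31, 2.61 and 1.51 FPKM in Ercc1 DR, Ercc1 AL and wt AL. The deposited loci of these genes do not overlap, since Csf1r ends at 61131139 and Hmgxb3 starts at 61131277. Use of strand in counting is not given in the sources used here. Whether reads of either gene entered the value of the other was not tested. Cd68, a lysosomal glycoprotein of macrophages in general (chromosome 11, 69664371 to 69666062, minus strand), was at 0.628 FPKM in Ercc1 DR (bounds 0.387 to 0.764), 0.973 FPKM in Ercc1 AL (0.637 to 1.09) and 0.993 FPKM in wt AL (0.641 to 1.18), with overlap throughout.

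In order of level, Clec4f came first and Cd68 and Timd4 last in every library, and the middle of the order differed. Of the 9 neighbouring pairs in each order, 6 in Ercc1 DR, 4 in Ercc1 AL and 7 in wt AL had overlapping bounds and so could not be ranked. By FPKM alone, Marco was the eighth of the markers in both Ercc1 libraries and the sixth in wt AL. Vsig4 was second in Ercc1 DR, sixth in Ercc1 AL and seventh in wt AL. Of these places, only that of Marco in Ercc1 AL was free of overlap with a neighbour.

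Promoter sequence was set beside these levels for the C1q pair that has an entry, for the leading marker Clec4f and for Vsig4, which departed from the others. Shown are the 250 bases before the RefSeq transcription start on GRCm38.p6, read 5′ to 3′ along the gene's strand (minus in each case), at chr4:136886201-136886450, chr4:136892915-136893164, chr6:83656117-83656366 and chrX:96293439-96293688. Capitals mark GGAAGT or its reverse complement ACTTCC, a core bound by ETS factors, among them PU.1 of the myeloid lineage.
C1qb: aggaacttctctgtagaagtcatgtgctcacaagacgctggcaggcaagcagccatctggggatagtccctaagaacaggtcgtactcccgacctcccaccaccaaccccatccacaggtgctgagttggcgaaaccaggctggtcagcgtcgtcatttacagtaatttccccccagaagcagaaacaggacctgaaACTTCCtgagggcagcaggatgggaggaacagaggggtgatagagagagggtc
C1qc: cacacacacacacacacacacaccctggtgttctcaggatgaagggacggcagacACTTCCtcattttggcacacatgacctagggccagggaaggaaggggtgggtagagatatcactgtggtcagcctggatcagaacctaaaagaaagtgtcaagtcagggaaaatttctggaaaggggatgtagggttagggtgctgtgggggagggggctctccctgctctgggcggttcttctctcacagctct
Clec4f: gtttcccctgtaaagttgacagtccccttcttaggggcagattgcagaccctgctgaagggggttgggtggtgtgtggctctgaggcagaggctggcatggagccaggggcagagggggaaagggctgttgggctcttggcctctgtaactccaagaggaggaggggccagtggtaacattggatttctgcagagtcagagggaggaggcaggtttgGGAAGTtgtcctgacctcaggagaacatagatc
Vsig4: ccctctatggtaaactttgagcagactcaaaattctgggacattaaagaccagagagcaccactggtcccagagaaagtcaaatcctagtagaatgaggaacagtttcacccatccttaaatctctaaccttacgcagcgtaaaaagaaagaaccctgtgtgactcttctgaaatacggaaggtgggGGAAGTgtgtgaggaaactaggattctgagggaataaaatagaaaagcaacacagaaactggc
An entry was found for 8 of the 10 markers. On either strand the core was present in 5 of these 8 windows (C1qb, C1qc, Clec4f, Timd4 and Vsig4), against 19.7% of all 32851 windows of that length. It began 53 bases before the start in C1qb, 195 in C1qc, 33 in Clec4f, 72 in Timd4 and 63 in Vsig4. Further patterns were searched on both strands, and 0 matches of different patterns overlapped each other in the 8 windows. TGANTCA, an AP-1 pattern, was in 1 of the 8 (Cd68, 6.75% of all windows). CACNTG, an E-box form, was in 3 (C1qb, C1qc and Timd4, 39.5% of all windows), and an interferon response pattern (GAAA, any 2 bases, GAAA) was in 0 of the 8 (2.98% of all windows). These matches describe letters and not binding. The windows of Marco, Cd5l and Cd68 hold 0 cores.

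FPKM levels differed between libraries across genes in general. For the set of 9053 genes that reached 1 FPKM in each of the libraries, the log2 FPKM ratio had a median of 0.34 in Ercc1 DR against Ercc1 AL, 0.49 in Ercc1 AL against wt AL and 0.78 in Ercc1 DR against wt AL. Ratios below are relative to this median gene unless called as deposited. Restricted to the 5488 of these genes averaging 1 to 6 FPKM, near the level of the markers, the medians were 0.30, 0.46 and 0.71. Rescaled ratios are given as a plain ratio of FPKM, and as a log2 ratio of rescaled FPKM + 1, which is smaller in size for genes as low as these. Of the 10 markers, 8 had at least 1 FPKM in either library of each pair and were counted with the other genes that did so, while Cd68 and Timd4 did not. Marco passed in both comparisons of Ercc1 DR only through the other library, and was bound to be lower there, so counts over all 10 are given as well.

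Under diet restriction within the mutant, nearly all markers were lower. In Ercc1 DR against Ercc1 AL the median marker stood at 0.482 of its level relative to the median gene, and the individual ratios ran from 0.400 for C1qa to 0.797 for Vsig4. The other markers were close together, with C1qb at 0.430, Timd4 at 0.432, Marco at 0.440, Clec4f at 0.468, Csf1r at 0.496, Cd68 at 0.511, C1qc at 0.512 and Cd5l at 0.525. Set against the 9053 genes, the 9 markers other than Vsig4 lay between the 12.2 and 17.5 percentiles, and Vsig4 was at the 33.1 percentile. Marco, Cd68 and Timd4 were below 1 FPKM in Ercc1 DR and so were not themselves among the 9053. That set leaves out genes that fell below 1 FPKM in any library. After rescaling, the bounds of 9 of 10 markers in Ercc1 DR lay below those in Ercc1 AL, 7 of them among the 8 that passed the filter. Of the 12295 genes measured, 38.4% did so, and 29.6% were higher by this rule. Only Vsig4 overlapped.

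As a log2 ratio of rescaled FPKM + 1, the 8 markers that passed the filter had a median of -0.73 in Ercc1 DR against Ercc1 AL, against -0.06 over all measured genes. Over all 10 markers it was -0.68, against -0.19 over all genes with a value and no filter, of which 17440 of 23266 lay below the median gene. By this measure 1 marker, C1qa at -1.01, was at least 2-fold lower, while 11.9% of measured genes were, and 0 markers were that much higher (3.07% of genes). C1qb at -0.98 and Clec4f at -0.92 came just short. Without the pseudocount 6 of 10 markers were at least 2-fold lower, 5 of them among those that passed the filter, and 21.6% of genes were, while 0 markers were 2-fold higher (4.34% of genes). As deposited, without rescaling, 9 markers still had a ratio under 1 and the bounds of 8 did not overlap in the lower direction, as for 26.9% of genes, with 0 markers in the higher direction (47.6% of genes). None reached 2-fold on the FPKM + 1 scale as deposited (8.65% of genes lower, 6.47% higher). The direction for Vsig4 turned, with a log2 FPKM ratio of 0.01 as deposited.

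**Figure D2:**
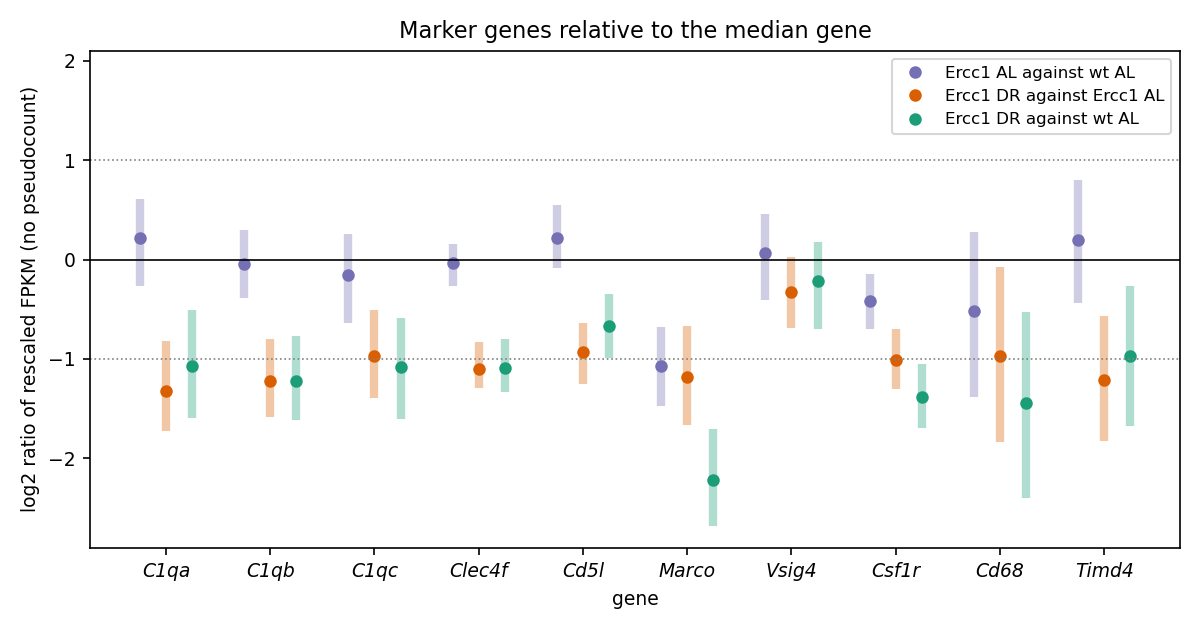
Log2 ratio of rescaled FPKM without a pseudocount (vertical axis) for the 10 marker genes (horizontal axis) in the 3 comparisons. Points are ratios, bars the range that the deposited bounds allow, 0 is the median of 9053 genes and dotted lines mark 2-fold. In both comparisons of Ercc1 DR 9 of 10 bars lie below 0, and in Ercc1 AL against wt AL only the bars of Marco and Csf1r do.

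Without restriction, most markers in the mutant lay near the general shift. Marco was the furthest below it, and Cd68 and Csf1r were also lower. In Ercc1 AL against wt AL the median marker stood at 0.970 of its level relative to the median gene. C1qa, Cd5l, Timd4 and Vsig4 were at 1.16, 1.16, 1.14 and 1.05, and Clec4f, C1qb and C1qc at 0.974, 0.966 and 0.897. Marco was at 0.475, at the 4.82 percentile of the 9053 genes, to which it does not itself belong. Csf1r and Cd68 were at 0.750 and 0.697.

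After rescaling, the bounds of 2 markers in Ercc1 AL, Marco and Csf1r, lay below those in wt AL, and none lay above. Of 12294 measured genes, 27.7% were lower and 24.1% higher by this rule, so the marker counts did not exceed the background. On the FPKM + 1 scale no marker was 2-fold higher or lower, against 2.30% and 4.90% of measured genes, and Marco was at -0.70. Without the pseudocount Marco alone was 2-fold lower (8.74% of genes) and 0 markers were 2-fold higher (3.70% of genes). As deposited, 0 markers reached 2-fold on the FPKM + 1 scale (2.20% of genes lower, 5.70% higher). The deposited bounds gave another count, since those of 6 markers (C1qa, C1qb, Clec4f, Cd5l, Vsig4 and Timd4) lay above wt AL and those of Marco below, while 61.7% of measured genes were higher and 11.0% lower by that rule.

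Relative to the median gene, the markers were also lower in the restricted mutant than in the freely fed wild type, as were sinusoidal endothelial markers (values given with the other cell types). In Ercc1 DR against wt AL the median marker was at 0.471 of its level relative to the median gene. Marco was the lowest at 0.215, followed by Cd68 at 0.367, Csf1r at 0.383, C1qb at 0.428, Clec4f at 0.470, C1qc at 0.473, C1qa at 0.478 and Timd4 at 0.509. Cd5l at 0.631 and Vsig4 at 0.860 were least different. After rescaling, 9 of 10 markers had bounds below those of wt AL, 7 of them among the 8 that passed the filter, as did 38.3% of 12054 measured genes, and 0 had bounds above (33.7% of genes).

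As deposited, without rescaling, the bounds of Marco, Clec4f and Csf1r lay below wt AL (20.5% of genes), those of Vsig4 above it (62.8% of genes), and those of the other 6 overlapped. The log2 FPKM ratio of Cd5l was 0.12 as deposited and -0.66 rescaled, and that of Vsig4 0.57 as deposited and -0.22 rescaled. On the FPKM + 1 scale the median of the 8 markers was -0.83, against -0.03 for all measured genes, and that of all 10 was -0.78, against -0.17 for all genes with a value. Of these genes 72.3% lay below the median gene. On the same scale Marco at -1.28 was the only marker at least 2-fold lower (16.4% of genes), with 0 higher (5.93% of genes). As deposited, 0 markers reached 2-fold on that scale (8.56% of genes lower, 24.1% higher). Rescaled and without the pseudocount, 7 of 10 were at least 2-fold lower, 6 of them among those that passed the filter, against 24.3% of genes, and 0 were higher (10.1% of genes). The 3 comparisons share libraries, so their values are not independent of each other.

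Ratios between markers within a library do not depend on the scaling between libraries, and they were set against Clec4f, the leading marker. Marco stood at 0.214 of Clec4f in Ercc1 DR, with 0.157 to 0.288 allowed by the bounds, 0.228 in Ercc1 AL (0.186 to 0.281) and 0.468 in wt AL (0.374 to 0.578). Both mutant libraries were thus below wt AL without overlap, while they overlapped each other. Vsig4 stood at 0.780 of Clec4f in Ercc1 DR (0.579 to 0.908), 0.458 in Ercc1 AL (0.364 to 0.525) and 0.426 in wt AL (0.319 to 0.539). Here Ercc1 DR was above both freely fed libraries, which overlapped.

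For the other 7 markers the ranges overlapped in all 3 comparisons. C1qb, for example, was at 0.779, 0.847 and 0.854 of Clec4f in Ercc1 DR, Ercc1 AL and wt AL, and Timd4 at 0.122, 0.133 and 0.113. Cd5l was at 0.743, 0.662 and 0.553 with overlap. Across measured genes other than Clec4f, 65.8% had a range above that of Ercc1 AL in Ercc1 DR, 63.4% above that of wt AL in Ercc1 DR, and 16.5% below that of wt AL in Ercc1 AL. Shares in the opposite directions were 9.05%, 13.5% and 14.6%. In Ercc1 DR, Vsig4 was thus on the side of most liver genes relative to Clec4f.

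**Figure D3:**
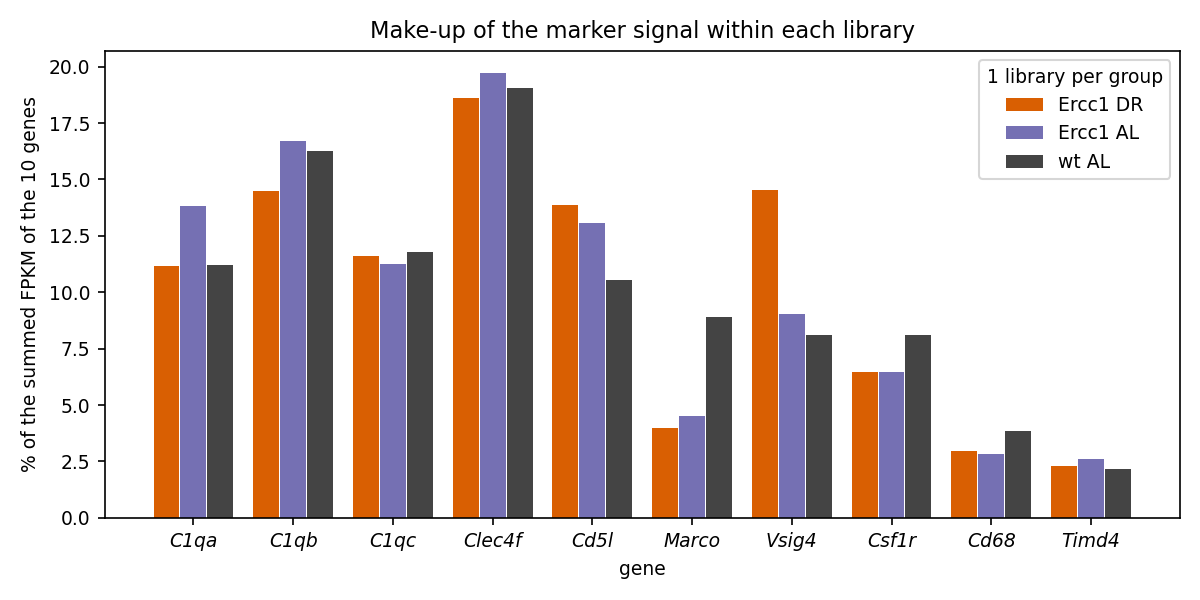
Share of each marker gene (horizontal axis) in the summed FPKM of the 10 genes (vertical axis, %) in Ercc1 DR, Ercc1 AL and wt AL, 1 library each. Marco makes up 3.99%, 4.50% and 8.91% of the sum in that order and Vsig4 14.5%, 9.03% and 8.11%.

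Of 16 other genes of Kupffer cells, 15 lay below the median gene in Ercc1 DR against Ercc1 AL, with a median log2 ratio of -0.39 (FPKM + 1 scale, as for all list values). With no filter on level, 17440 of 23266 genes with a value did so, with a median of -0.19. Irf8 alone was at least 2-fold lower, against 11.9% of measured genes, and 0 were 2-fold higher (3.07% of measured genes). Emr1, Folr2 and Sfpi1 reached 1 FPKM in Ercc1 AL and not in Ercc1 DR, so that their place among the 15 that passed the filter rests on the library where they are high. The summed level of the list as deposited was nearly equal in the Ercc1 libraries, with 81.3 FPKM in Ercc1 DR, 82.6 FPKM in Ercc1 AL and 53.8 FPKM in wt AL. The interferon regulatory factor gene Irf8, which directs myeloid development, was at 1.89 FPKM in Ercc1 DR, 5.53 FPKM in Ercc1 AL and 4.91 FPKM in wt AL, and its log2 ratio in Ercc1 DR against Ercc1 AL was -1.43. Sfpi1, which encodes PU.1, was at 0.600, 1.77 and 0.723 FPKM in that order, and Folr2, a folate receptor of resident macrophages, at 0.687, 1.47 and 1.05 FPKM. Several of the listed genes are not confined to Kupffer cells. The iron exporter gene Slc40a1 was at 14.0, 14.0 and 13.9 FPKM as deposited in Ercc1 DR, Ercc1 AL and wt AL, and Id3 at 31.9, 26.1 and 9.74 FPKM. None of the 16 was 2-fold higher or lower in Ercc1 AL against wt AL, where the median was 0.03. Few measured genes were, with 2.30% higher and 4.90% lower.

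Of 19 general macrophage and myeloid genes, 17 lay below the median gene in Ercc1 DR against Ercc1 AL, with a median of -0.45. With no filter on level, 17440 of 23266 genes did so, with a median of -0.19. At least 2-fold lower were 2 (Ctss and Cybb) and higher 1 (Cd14), while 12 passed the filter and 11.9% of measured genes were lower and 3.07% higher. Cd14 passed through Ercc1 DR alone, and Fcgr3, Cyba and Hpgds through Ercc1 AL alone. The lysosomal protease gene Ctss was at 8.69 FPKM in Ercc1 DR, 19.2 FPKM in Ercc1 AL and 34.7 FPKM in wt AL. Ctss was the only one of the 19 that was 2-fold lower in Ercc1 AL against wt AL (4.90% of measured genes). The 19 genes had a median of -0.10 there. Cybb, the catalytic subunit of the phagocyte oxidase, was at 2.07, 5.75 and 5.80 FPKM in that order. Cd14, a co-receptor for lipopolysaccharide, went the other way, with 5.42 FPKM in Ercc1 DR, 0.943 FPKM in Ercc1 AL and 0.784 FPKM in wt AL. Cd14 can also be expressed by hepatocytes, and the cell source of its RNA was not tested.

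Genes of infiltrating monocytes were mostly under 1 FPKM. Of 10 monocyte genes only F13a1 and Plac8 passed the filter, and Ly6c2, which marks inflammatory monocytes, was at 0.162, 0.332 and 0.312 FPKM in Ercc1 DR, Ercc1 AL and wt AL, with Ccr2 at 0.346, 0.607 and 0.456 FPKM. The summed level of the 10 was 13.2, 17.6 and 16.2 FPKM, most of it F13a1 at 8.28, 11.4 and 11.3 FPKM. Of 8 genes of lipid-associated macrophages, 4 reached 1 FPKM in Ercc1 DR, 5 in Ercc1 AL and 3 in wt AL, and in Ercc1 DR against Ercc1 AL Cd9 was at least 2-fold higher (3.07% of measured genes) and Lgals3, which passed through Ercc1 AL alone, at least 2-fold lower (11.9%). Trem2, the receptor that defines these cells, was at 0.259, 0.607 and 0.399 FPKM, Lgals3, which encodes galectin-3, at 0.781, 2.15 and 0.690 FPKM, and the tetraspanin gene Cd9 at 9.48, 2.43 and 1.93 FPKM. None of the 18 genes of these lists was at 0 in any library.

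Partners of the markers were mixed. The CSF1 receptor ligand gene Csf1 was at 2.62 FPKM in Ercc1 DR, 4.14 FPKM in Ercc1 AL and 3.41 FPKM in wt AL, and the other ligand gene, Il34, at 0.393, 0.826 and 0.620 FPKM. The C1q genes encode the recognition part of C1, while its proteases C1r and C1s and the later components come mainly from hepatocytes. The protease genes C1ra and C1s had levels of 14.7 and 30.9 FPKM in Ercc1 DR, of 12.4 and 35.5 FPKM in Ercc1 AL, and of 6.77 and 23.2 FPKM in wt AL. Of 13 classical and lectin pathway genes, 12 passed the filter, and 3 were at least 2-fold lower in Ercc1 DR against Ercc1 AL (C4b, Mbl1 and C5ar1, the last through Ercc1 AL alone) and 1 higher (C3). The shares of measured genes were 11.9% and 3.07%, and the 13 genes had a median of -0.46. C3, the source of the fragments bound by the Vsig4 product, was at 1094 FPKM in Ercc1 DR, 428 FPKM in Ercc1 AL and 404 FPKM in wt AL. C5ar1, the C5a receptor gene of myeloid cells, was at 0.904, 2.46 and 5.87 FPKM in that order.

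Among the genes for clearance of dying cells, 9 of 13 passed the filter, each in both libraries, and in Ercc1 DR against Ercc1 AL 2 exceeded 2-fold upwards (3.07% of measured genes) and 0 downwards (11.9%), with a median of -0.24 over the 13. Both higher genes, Pros1 and Cd36, are also expressed by hepatocytes, and the cell source of their RNA was not tested. Pros1, which encodes the bridging protein S, was at 41.6 FPKM in Ercc1 DR, 9.68 FPKM in Ercc1 AL and 3.85 FPKM in wt AL, and its partner Gas6 at 2.09, 3.75 and 6.39 FPKM. Mertk, the receptor for both on Kupffer cells, was at 2.09, 1.74 and 1.84 FPKM. Of 7 MHC class II genes, 3 passed the filter. All 7 lay below the median gene in Ercc1 DR against Ercc1 AL (17440 of 23266 genes with no filter). In Ercc1 AL against wt AL 5 did so (12199 of 23267 genes with no filter). The medians over the 7 were -0.39 and -0.18. Of 6 lysosomal membrane genes, among them the Lamp genes to which Cd68 is related, 5 passed and none differed 2-fold in any comparison. Of measured genes, 3.07% were higher and 11.9% lower in Ercc1 DR against Ercc1 AL. The shares were 2.30% and 4.90% in Ercc1 AL against wt AL, and 5.93% and 16.4% in Ercc1 DR against wt AL. The median over the 6 was 0.20 in Ercc1 DR against Ercc1 AL.

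**Figure D4:**
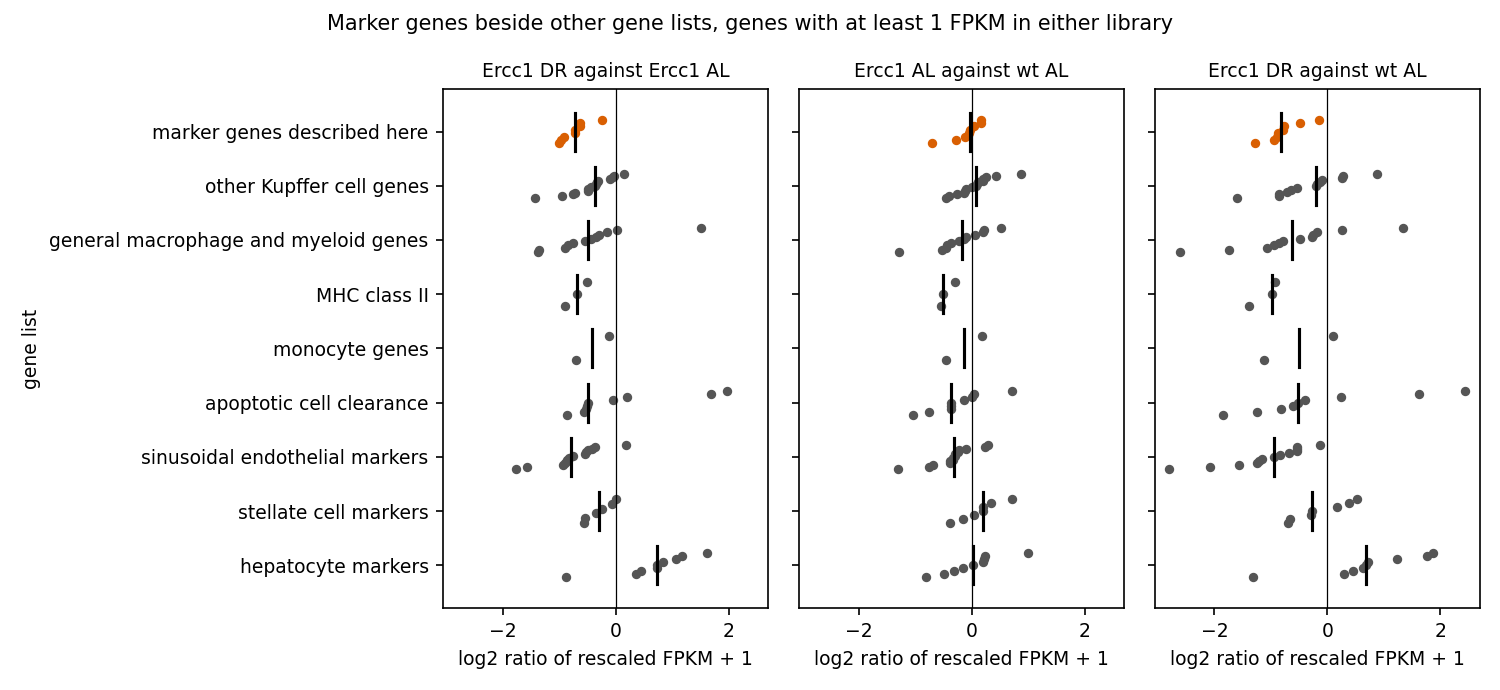
Log2 ratio of rescaled FPKM + 1 (horizontal axis) of the genes that passed the filter, by gene list (vertical axis), in the 3 comparisons. Each point is a gene, black bars are list medians and 0 is the median of 9053 genes. In Ercc1 DR against Ercc1 AL the medians drawn are -0.73 for the markers, -0.80 for sinusoidal endothelial markers and 0.73 for hepatocyte markers, and a gene can be drawn through the library where it is high.

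Markers of other liver cells differed between libraries beside these genes, and their part in the results was not tested. The 14 sinusoidal endothelial markers had a median of -0.80 in Ercc1 DR against Ercc1 AL. Of these, 13 lay below the median gene (17440 of 23266 genes with no filter). At least 2-fold lower were 2, against 11.9% of measured genes. Tek, Bmp2 and Dnase1l3 reached 1 FPKM there in Ercc1 AL alone and Lyve1 in Ercc1 DR alone. In Ercc1 DR against wt AL their median was -0.89, with 6 at least 2-fold lower (16.4% of measured genes), beside -0.78 and 1 of 10 for the Kupffer cell markers. In Ercc1 AL against wt AL it was -0.32. Their summed level was 25.9 FPKM in Ercc1 DR, 50.9 FPKM in Ercc1 AL and 54.3 FPKM in wt AL. The 10 stellate cell markers had a median of -0.34 in Ercc1 DR against Ercc1 AL. Hepatocyte markers, of which 9 of 10 had a value, had a median of 0.73 in that comparison and 0.02 in Ercc1 AL against wt AL, and summed to 9795 FPKM in Ercc1 DR, 4625 FPKM in Ercc1 AL and 3354 FPKM in wt AL.

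None of the 10 T and NK cell markers in the tables reached 1 FPKM in any library, and their sums were 2.64, 4.68 and 3.51 FPKM in Ercc1 DR, Ercc1 AL and wt AL. B cell markers summed to 7.17, 16.7 and 27.0 FPKM in that order, of which Cd79b, a chain of the B cell receptor complex, made up 5.55, 13.3 and 24.9 FPKM. The other 7 B cell markers were each at most 1.03 FPKM. Neutrophil markers summed to 6.76, 11.3 and 15.4 FPKM. Dendritic cell markers summed to 59.7, 46.2 and 23.8 FPKM, of which Bst2, an interferon-induced gene not limited to those cells, made up 56.1, 40.5 and 20.1 FPKM. No marker of these lists was at 0 in any library. Erythroid markers summed to 301 FPKM in Ercc1 DR, 590 FPKM in Ercc1 AL and 933 FPKM in wt AL, and cholangiocyte markers to 5.02, 5.16 and 8.04 FPKM.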

How the data were processed

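Total liver RNA was depleted of ribosomal RNA (RiboMinus) and sequenced from TruSeq libraries, per the labels' protocols. The deposited values are FPKM with a lower and an upper bound and a status code, per the file headers, with mm10 as genome build according to the labels and per the submitters' processing notes. Quantification tool, version and annotation: not given in the sources used here. Each table held 23850 rows. Rows with status HIDATA or FAIL (97 in at least 1 library) were treated as missing, and 494 rows with a repeated symbol were dropped in favour of the highest mean. Locus starts, 0-based in the tables, are printed 1-based. Strand and exon overlaps came from GENCODE M21.

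Depth is unknown, since the tables hold no counts. Each pair of libraries was rescaled, the factor split evenly between them, so that the median gene among those reaching 1 FPKM in each library had a log2 ratio of 0. Genes with at least 1 FPKM in either library were measured, log2 ratios used a pseudocount of 1, and 2-fold was the threshold. The range of a plain ratio is that allowed by the deposited bounds. Python 3.11.15, numpy 2.4.6 and pandas 2.3.3 were used, and the ratio functions were tested on simulated data. No test between groups was made. The markers and the 18 lists (183 genes, 181 found) were chosen with earlier results of these data known, and the promoter patterns and ratios to Clec4f after values were seen. Named genes are all markers and Ercc1, and from each list those among the 2 highest and 2 lowest ratios in a comparison. Other genes named, Hmgxb3, Folr2, Ly6c2, Ccr2, Trem2, Il34, C1ra, C1s, Mertk and those named for passing the filter through a single library, were chosen after their values were seen.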

Additional observations from a re-analysis of the deposited data

How the results depend on the processing

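All 10 markers stayed below the median gene in Ercc1 DR against Ercc1 AL and against wt AL in all rescaled settings, as did 17440 of 23266 and 16842 of 23287 genes with a value as reported. As deposited, 9 and 8 of 10 had a ratio below 1, and the median of the markers on the log2 scale was 0.38 in Ercc1 AL against wt AL and -0.23 in Ercc1 DR against wt AL. Counts of markers at least 2-fold lower were sensitive, since many lie near the threshold. For Ercc1 DR against Ercc1 AL the count, 1 as reported, was 0 as deposited, with interval midpoints, with a pseudocount of 5 and with scaling to genes averaging 1 to 6 FPKM, 2 with scaling to summed FPKM, 4 with a pseudocount of 0.1, 5 without one, 6 without filter as well, and 7 at 1.5-fold. Of all measured genes, 23.3% were lower at 1.5-fold there, 20.7% with a pseudocount of 0.1 and 6.32% with one of 5. For Ercc1 DR against wt AL, 1 as reported, it was 0 as deposited and with a pseudocount of 5, 6 with a pseudocount of 0.1, without one, and at 1.5-fold, and 7 without pseudocount and filter, beside 26.4% of genes at 1.5-fold, 23.6% with a pseudocount of 0.1 and 7.55% with one of 5. For Ercc1 AL against wt AL, 0 as reported, it was 1 with a pseudocount of 0.1, without one, with no filter as well, and at 1.5-fold, beside 8.23% of genes with a pseudocount of 0.1 and 11.2% at 1.5-fold. The median log2 ratio was -1.02 with a pseudocount of 0.1, -1.05 without one (with or without the filter) and -0.38 with a pseudocount of 5 in Ercc1 DR against Ercc1 AL, and -0.38 with a pseudocount of 5 in Ercc1 DR against wt AL. The pseudocount moves these ratios by its own construction at such low FPKM. Scaling to genes with at least 5 FPKM kept each of the 255 gene ratios compared within the range allowed by the deposited bounds and the reported ratio. The pseudocount 0, the level-matched scaling and the removal of the filter with no pseudocount were chosen after seeing the data. No paired analysis was possible because each group has 1 library, and none could be left out. The low FPKM of Cd68 and Timd4 limits what can be said of them.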
